A study of Mus musculus with 29 samples.

Results

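The experiment measured how far the effects of interleukin-4 (IL-4) and interleukin-10 (IL-10) on mouse macrophages depart from a simple sum when both cytokines are given together. It uses 16 of the 29 arrays of the series, chosen by group label and replicate number. These are 5 arrays of unstimulated cells (replicates 1 to 5), 5 of cells given IL-4, 3 of cells given IL-10 and 3 of cells given IL-4 and IL-10. All were macrophages grown from the bone marrow of wild-type C57BL/6 mice of 8 weeks, matured over 7 days in fluoropolymer bags on CSF-1 at 10 ng/ml, and then held for a further 24 h in the same CSF-1 plus 10 ng/ml of each cytokine named, or in CSF-1 alone. CSF-1 is the growth factor on which macrophages differentiate, so every group, the unstimulated one included, carried it throughout. The labels do not say whether replicates came from separate mice or cultures, so p-values measure only the spread between these arrays, and that spread may be technical.

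IL-4 binds a receptor whose shared chain is Il4ra and acts mainly through the transcription factor STAT6. In macrophages it drives the programme called alternative activation, with Arg1 (arginase 1), chitinase-like proteins, C-type lectins and the chemokine Ccl24 as typical targets. IL-10 acts through its own receptor and STAT3, of which Socs3, an inhibitor of JAK kinases, is a standard target, and it restrains inflammatory cytokine genes in activated macrophages.

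Values are log2 intensities, on which a difference of 1 is a 2-fold difference. The interaction of a gene is its IL-4 effect in the presence of IL-10 (IL-4+IL-10 minus IL-10) minus its IL-4 effect in the absence of IL-10 (IL-4 minus unstimulated replicates 1 to 5). An interaction of 0 means that the effects add, a positive value that the combination lay above the sum, and a negative value that it lay below. Genes were called at a Benjamini-Hochberg adjusted p under 0.05 in limma's moderated test over 7154 genes. The replicate numbers place the IL-10 groups in a second set of arrays together with unstimulated replicates 6 to 8, although no label states the sets. A shift that raises or lowers all arrays of a set alike cancels in the interaction. It may not cancel where background limits the level of some groups. A difference between the sets in the IL-4 response itself cannot be told apart from an effect of IL-10. The unstimulated arrays of the 2 sets differed in 1366 genes (19.1% of those tested), and that shift is given beside several of the genes described. Some results are also given with unstimulated replicates 6 to 8 as controls. The IL-4 effect without IL-10 then crosses the sets, so that shift is added to the interaction and does not cancel. With all 8 unstimulated arrays it is added in part.

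The macrophage markers Csf1r (14.38, 14.30, 14.35 and 14.18 in unstimulated, IL-4, IL-10 and IL-4+IL-10 cells) and Lyz2 (14.90, 14.59, 14.89 and 14.47) lay near the top of the range of all values, which ended at 15.13. Both were printed after their values were seen, and the whole list of 8 macrophage markers had a median IL-4 effect of -0.54 without and -0.50 with IL-10. Its mean level ranged from 12.60 to 12.73 on unstimulated arrays 1 to 5, 11.78 to 11.91 with IL-4, 12.89 to 12.97 with IL-10 and 11.87 to 12.03 with both, and 1 of its interactions was called positive and 2 negative. Neutrophil markers were present in every group: 5 of 7 on the array passed the filter, their list had a mean level of 8.73 to 8.99, 8.49 to 8.84, 8.84 to 9.22 and 8.40 to 8.88 in the same order, and 0 interactions were called. None of the markers of T and NK cells or of fibroblasts and stroma passed the filter on dim genes, whose level was 6.99. Array medians lay between 6.95 and 7.03 and correlations between the 16 arrays between 0.977 and 0.998. Transcripts of the B lineage were lower in the second set: the mean level of that marker list ranged from 7.29 to 8.45 on unstimulated arrays 1 to 5, 6.91 to 8.29 with IL-4, 6.40 to 6.48 with IL-10 and 5.92 to 6.18 with IL-4+IL-10. In its 5 tested members, of 8 listed, 0 interactions were called, with values from -0.58 in Cd79b to 0.10 in Iglv1. With the replicate number as a block that of Cd79b was called (adjusted p = 0.0174), and with unstimulated replicates 6 to 8 as controls 4 were called negative. With no detection calls used here, a level under the filter may be limited by background, and in RNA from whole cultures fewer cells of a type and less RNA per cell cannot be told apart.

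The effects of IL-4 and IL-10 did not add in 1701 of the 7154 genes tested (23.8%). In 976 genes (13.6%) the combination lay above the sum, with the highest values in the chemokine Ccl8, the lectin Cd209e and the chemokine Ccl24. Of the 4 group means of Cd209e, only that of the combination was above the filter level. In 725 (10.1%) it lay below, with the most negative values in the acute-phase gene Saa3, the leukaemia inhibitory factor receptor Lifr and the coagulation factor gene F13a1. At an unadjusted p under 0.05, 2558 genes passed, and the median interaction over all genes was 0.026. Large interactions, called and of at least 1 in either direction, numbered 119 (1.66%), of which 60 were positive and 59 negative. Of these large interactions, 54 had all 4 group means above the filter level and 26 had fewer than 2, so background may limit some of the means.

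Non-additivity mostly meant a larger response to IL-4 in the presence of IL-10. Of the 1701 called genes, 1294 (76.1%) had an IL-4 effect of greater size with IL-10 than without, 291 (17.1%) had a smaller one, 101 (5.94%) were called in opposite directions in the 2 contexts, and 15 were called in neither. Among the positive interactions, 426 genes rose with IL-4 in both contexts and 316 rose only where IL-10 was present, in the sense that the effect without IL-10 was not called. Among the negative ones, 358 fell with IL-4 in both contexts and 194 were called lower with IL-10 and not called without it. IL-4 changed 4179 genes (58.4%) without IL-10 and 4468 (62.5%) with it. The SD of the IL-4 effect over genes was 0.483 without and 0.630 with IL-10, and the effect with IL-10 rests on fewer arrays. Where both effects were called, 3192 of 3293 genes kept their direction. In the presence of interleukin-6 (IL-6), on other arrays of the series described below, the SD of the IL-4 effect was 0.643. A wider spread was thus not particular to IL-10. In 729 called genes the IL-4+IL-10 mean lay above all 3 other group means and in 497 below all 3. By single arrays, all 3 combination arrays lay above every array of the other 3 groups in 1289 of the genes tested (18%) and below every one in 837 (11.7%). These counts of means and of single arrays compare the 2 sets directly, so a shift between the sets does not cancel in them. The Actb 3′ minus 5′ value, a sign of RNA quality, was also higher on the combination arrays (0.377 to 0.441) than on the others of the 4 groups (0.294 to 0.363), and it was 0.366 to 0.504 on unstimulated replicates 6 to 8. Its part in the results was not tested.

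**Figure D1:**
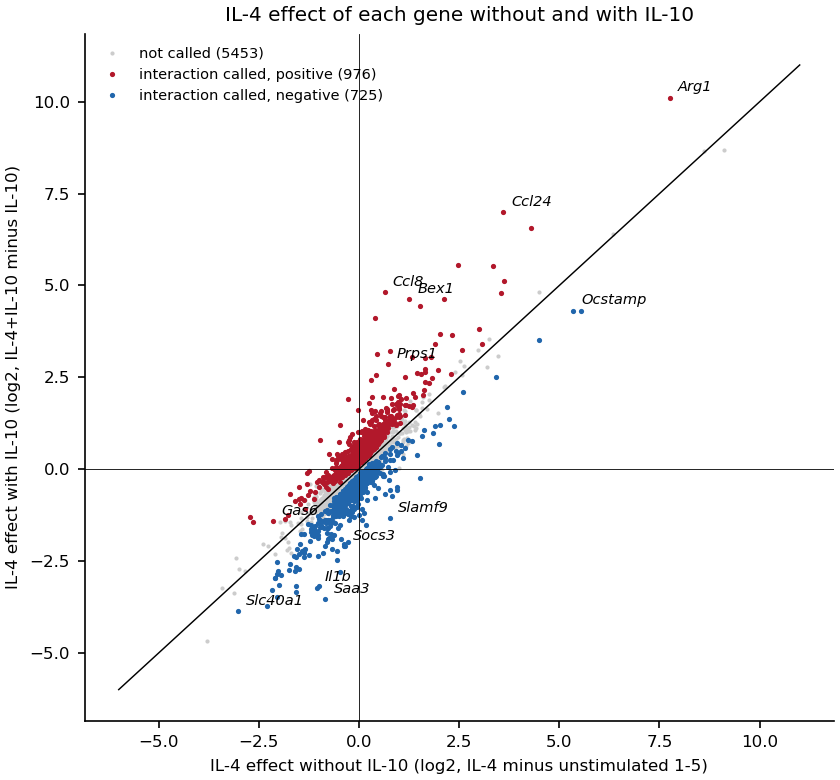
The IL-4 effect of each of 7154 genes without IL-10 (x axis, log2, IL-4 minus unstimulated replicates 1 to 5) and with IL-10 (y axis, log2, IL-4+IL-10 minus IL-10), with the line of equal effects; grey points were not called, red points had a called positive interaction (976) and blue points a called negative one (725). Ccl8, Ccl24 and Arg1 lie far above the line, and Il1b, Saa3, Socs3 and Slamf9 below it.

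Chemokine genes were among those with the highest positive interactions. Ccl8, a monocyte-attracting chemokine, read 5.48, 6.25, 5.81, 5.96 and 5.96 on the unstimulated arrays, 6.91, 6.36, 6.48, 6.32 and 6.57 with IL-4, 8.27, 9.12 and 8.92 with IL-10, and 13.37, 13.71 and 13.65 with both. All 3 combination arrays stood over 4 units above every other array, and the 4 groups did not overlap. The sum of the separate effects came to 9.40, the combination mean was 13.57, and the interaction was 4.17 ± 0.25 (SE; adjusted p = 2.70e-12). IL-4 raised Ccl8 by 0.64 without IL-10 and by 4.81 with it.

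Ccl24 (eotaxin-2, which attracts eosinophils) was not called for IL-10 alone (0.14 ± 0.19, SE, against unstimulated replicates 6 to 8, adjusted p = 0.628). It read 6.61, 6.39, 6.19, 6.38 and 6.57 unstimulated, 10.51, 10.09, 9.83, 10.12 and 9.52 with IL-4, 6.38, 6.68 and 6.30 with IL-10, and 13.06, 13.58 and 13.70 with both. The IL-10 arrays overlapped the unstimulated ones, and the combination arrays were again above all others. Its interaction was 3.41 ± 0.24 (SE; adjusted p = 6.14e-11). Ccl7 and Ccl2, ligands of the monocyte receptor Ccr2, had interactions of 2.51 ± 0.23 and 1.73 ± 0.27, with means of 6.67, 8.80, 7.36 and 11.99 for Ccl7 and 8.999, 10.31, 9.03 and 12.08 for Ccl2 in unstimulated, IL-4, IL-10 and IL-4+IL-10 cells. In Ccl7 and Ccl2, IL-10 replicate 1 (7.92 and 9.61) was the highest of its group.

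Ccr2 itself went the other way. Its values were 10.87, 10.64, 10.70, 10.61 and 10.49 unstimulated, 10.29, 10.27, 9.93, 10.16 and 9.86 with IL-4, 11.14, 11.18 and 11.36 with IL-10, and 8.75, 8.67 and 8.85 with both. IL-10 arrays were the highest and combination arrays the lowest, with no overlap of groups. With IL-4, Ccr2 fell by 0.56 without IL-10 and fell by 2.47 with it (interaction -1.92 ± 0.16, SE, adjusted p = 1.19e-09), and both other probe sets of Ccr2 gave called negative interactions (-2.03 and -1.76). Of 19 tested genes in the whole chemokine list, 7 had called positive and 6 called negative interactions (68.4% called in all, against 23.8% of all genes). The negative ones included the inflammatory chemokines Cxcl10 (-1.11 ± 0.16) and Ccl4 (-0.94 ± 0.15), and the list's median was -0.19. With unstimulated replicates 6 to 8 as controls the negative count was 3, Cxcl10 gave -0.55, beside a shift of 0.56 between the sets' unstimulated arrays, and Ccl4 gave -0.59.

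**Figure D2:**
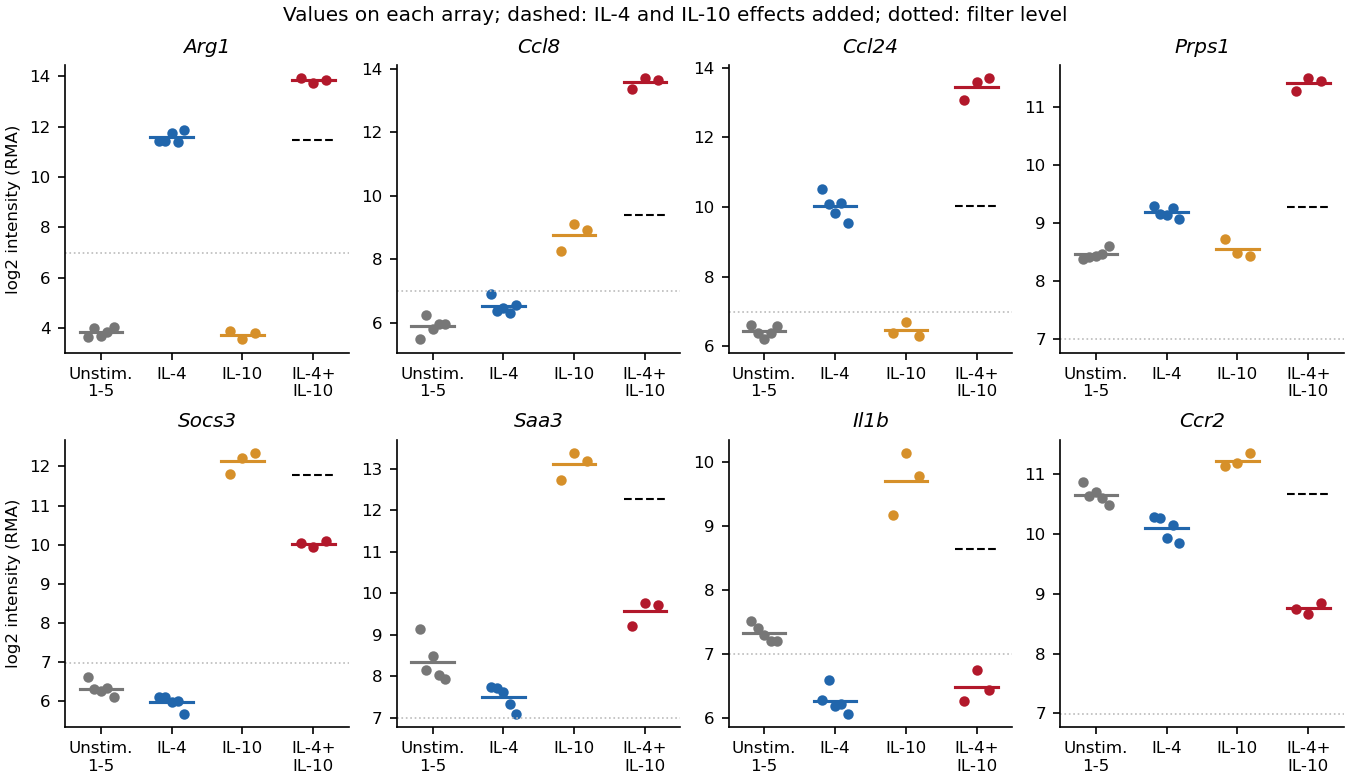
Log2 intensity on each array (y axis) of 8 genes in unstimulated (replicates 1 to 5), IL-4, IL-10 and IL-4+IL-10 cells; points are arrays, solid lines group means, dashed lines the value that the IL-4 and IL-10 effects give when added, and dotted lines the filter level of 6.99. In Arg1, Ccl8, Ccl24 and Prps1 every combination array lies above the dashed line (for Arg1 near 13.85 against 11.48), and in Socs3, Saa3, Il1b and Ccr2 below it (for Socs3 near 10.03 against 11.78).

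The alternative activation programme of IL-4 was altered in both directions, more often upward. Of 37 tested genes of that list, 20 had called positive interactions and 7 called negative ones, against 13.6% and 10.1% of all genes, and the list's median was 0.31. Arg1, which converts arginine to ornithine, read 3.63, 3.98, 3.68, 3.83 and 4.04 unstimulated, 11.45, 11.45, 11.77, 11.39 and 11.86 with IL-4, 3.87, 3.54 and 3.79 with IL-10, and 13.93, 13.75 and 13.86 with both. Unstimulated and IL-10 arrays were equally low, under the filter level. The interaction of 2.36 ± 0.14 (SE, adjusted p = 2.48e-12) therefore rests on the step from IL-4 to the combination. That step compares the 2 sets directly, and a shift between the sets may not cancel in it. The C-type lectin Cd209e moved furthest in this list. It stayed at 4.08, 4.48 and 4.28 in unstimulated, IL-4 and IL-10 cells and reached 8.39 with both (7.91, 8.91 and 8.34 on the 3 arrays), an interaction of 3.71 ± 0.17. Only its combination mean lay above the filter level, and background may limit the others. Chil4, a chitinase-like protein, had means of 4.34, 6.81, 4.31 and 9.85 (3.08 ± 0.18), with only the last above the filter level. The members with called negative interactions included Ocstamp, a membrane protein of cell fusion, which rose to 11.29 with IL-4 from 5.96 and to 9.72 with the combination from 5.41 (-1.02 ± 0.28).

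Pdcd1lg2, which encodes PD-L2, a ligand of the T cell receptor PD-1, was another IL-4 gene with no called rise for IL-10 alone (-0.28 ± 0.17, SE, against unstimulated replicates 6 to 8, adjusted p = 0.235). Its means were 5.66 unstimulated, 9.01 with IL-4, 5.37 with IL-10 and 10.91 with both. The interaction was 2.19 ± 0.21 (SE; adjusted p = 1.68e-08). Promoter sequences were searched for the spacings usually bound by STAT6 (TTC and GAA with any 4 bases between) and by STAT3 (TTCNNNGAA), both of which read the same on either strand. Of 24 ranked genes, the 12 most positive and the 12 most negative, 17 had a promoter in the RefSeq table, and 2 of those held a match: Pdcd1lg2 among the positive and Socs3 among the negative genes. Over all 32851 listed promoters, 6.95% held the first motif, 8.3% the second and 14.6% either, so a match is a description of the letters and not a binding site. The Pdcd1lg2 promoter, shown because it holds the first spacing, is chr19:29410669-29410968 on the plus strand of GRCm38.p6, with the match, in capitals, starting 82 bases before the gene's start.
Pdcd1lg2: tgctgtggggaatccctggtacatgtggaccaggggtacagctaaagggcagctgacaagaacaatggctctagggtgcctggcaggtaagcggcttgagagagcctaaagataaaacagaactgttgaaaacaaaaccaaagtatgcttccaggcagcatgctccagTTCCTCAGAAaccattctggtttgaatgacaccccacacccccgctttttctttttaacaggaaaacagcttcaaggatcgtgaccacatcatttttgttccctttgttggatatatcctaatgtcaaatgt

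Among the other genes of highest positive interaction, Prps1, which makes the precursor of nucleotide synthesis, was well measured in every group. It read 8.39, 8.42, 8.43, 8.47 and 8.60 unstimulated, 9.29, 9.16, 9.14, 9.26 and 9.07 with IL-4, 8.73, 8.47 and 8.43 with IL-10, and 11.28, 11.49 and 11.45 with both. IL-10 arrays overlapped the unstimulated ones, and the combination arrays lay about 2 units above all others. The interaction was 2.14 ± 0.095 (SE; adjusted p = 9.54e-15), the most precise of the 24 ranked genes. Cystm1 was lowered by IL-4 without IL-10 (by 0.27, adjusted p = 0.0443) and raised by it with IL-10 (by 1.91), for an interaction of 2.18 ± 0.19. Pdgfc, a platelet-derived growth factor chain, also switched from a fall of 0.47 to a rise of 1.20 (1.67 ± 0.21, beside a set shift of 0.64), and Hbegf, a ligand of the EGF receptor, had an interaction of 1.66 ± 0.23. Bex1 had 6.93, 8.18, 5.15 and 9.79 as its means (3.39 ± 0.35), with IL-10 arrays between 4.67 and 5.94 and a shift of -0.91 between the sets' unstimulated arrays. Ddx4, an RNA helicase known from germ cells, had means of 3.98, 8.26, 3.70 and 10.26 (2.27 ± 0.18). Its unstimulated and IL-10 means were under the filter level.

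Genes that respond to STAT3 often lay below the sum. Of 29 tested genes of that list, 14 had called negative and 3 called positive interactions, against 10.1% and 13.6% of all genes, with a median of -0.35. The positive count was 6 with the replicate block and 6 with unstimulated replicates 6 to 8 as controls. Socs3 read 6.62, 6.32, 6.26, 6.34 and 6.12 unstimulated, 6.11, 6.11, 5.97, 6.01 and 5.69 with IL-4, 11.82, 12.22 and 12.36 with IL-10, and 10.06, 9.94 and 10.09 with both. The combination arrays lay between the IL-10 arrays and the rest, with no overlap on either side. IL-4 lowered Socs3 by 0.35 without IL-10, where the level was under the filter, and by 2.10 with it, an interaction of -1.75 ± 0.16 (SE; adjusted p = 4.23e-09). The 2 other probe sets of Socs3 gave -1.96 and -1.63, both called. Its promoter, shown because it holds the STAT3-type spacing, is chr11:117969317-117969616 on the minus strand of GRCm38.p6, with the match, in capitals, starting 154 bases before the gene's start.
Socs3: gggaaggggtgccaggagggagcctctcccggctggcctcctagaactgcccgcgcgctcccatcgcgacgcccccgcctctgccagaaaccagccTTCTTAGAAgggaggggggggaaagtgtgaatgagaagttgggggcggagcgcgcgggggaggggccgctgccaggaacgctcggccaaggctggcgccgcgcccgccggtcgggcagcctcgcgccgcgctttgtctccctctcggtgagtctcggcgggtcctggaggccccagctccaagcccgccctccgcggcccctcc

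Saa3, an acute-phase serum amyloid gene, had the most negative interaction of all ranked genes. It read 9.15, 8.15, 8.49, 8.03 and 7.93 unstimulated, 7.74, 7.71, 7.62, 7.33 and 7.10 with IL-4, 12.73, 13.39 and 13.19 with IL-10, and 9.20, 9.76 and 9.72 with both. IL-10 raised it far above the other groups, and the combination arrays, the lowest at 9.20, came close to the highest unstimulated array at 9.15. The interaction was -2.69 ± 0.35 (SE; adjusted p = 1.48e-06), beside a shift of 0.88 between the sets' unstimulated arrays. Fpr2, a formyl peptide receptor, was also highest with IL-10, with means of 7.25, 5.76, 8.57 and 5.86 (-1.22 ± 0.18), and its combination mean lay below the unstimulated one. The IL-4 and combination means of Fpr2 were under the filter level, and background may limit them. Stat3 itself was higher with IL-10 in both contexts (9.85, 9.58, 10.92 and 10.56), and its interaction was not called (-0.08 ± 0.090, adjusted p = 0.549).

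The IL-4 receptor chain Il4ra was among the genes that IL-10 raised and the combination raised less. It read 8.10, 7.98, 8.00, 8.05 and 7.54 unstimulated, 7.86, 7.63, 7.58, 7.63 and 7.24 with IL-4, 10.89, 11.22 and 10.996 with IL-10, and 9.65, 10.10 and 9.80 with both. All combination arrays lay well above the unstimulated and IL-4 arrays and below the IL-10 arrays. Its interaction was -0.84 ± 0.18 (SE; adjusted p = 0.000802). A second probe set of Il4ra gave -1.11, called, and the third -0.39, not called. In the list of receptor chains, 2 of 10 tested genes had called positive and 4 called negative interactions, and Il13ra1, which pairs with Il4ra in the receptor shared with IL-13, had one of -1.36 ± 0.17 at a dim level (6.47, 5.45, 7.31 and 4.94). Il21r had -0.99 ± 0.16. The called share of this list was 60%, against 23.8% of all genes.

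Among SOCS and JAK-STAT components, 3 of 21 tested genes had called positive and 6 called negative interactions (42.9% called, against 23.8% of all genes). Socs1, an inhibitor induced by STAT6, had means of 5.17 unstimulated, 7.14 with IL-4, 5.59 with IL-10 and 8.28 with both (0.73 ± 0.17, adjusted p = 0.00207). The kinase gene Jak2 rose by 0.98 with IL-4 alone and by 1.71 where IL-10 was present (0.73 ± 0.065, adjusted p = 3.82e-09). Cish, a SOCS family member, rose by 2.52 and 2.94, and its interaction was not called (0.43 ± 0.24, adjusted p = 0.207). Stat6 gave 0.07 ± 0.069 (adjusted p = 0.490).

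Called interactions of inflammatory genes were negative. Of 16 tested genes of classical inflammatory activation, 8 had called negative and 0 called positive interactions, with a median of -0.44. Among all genes 10.1% were called negative and 13.6% positive. Against unstimulated replicates 6 to 8 as controls, 4 were called negative, and the replicate block gave 10 negative and 2 positive calls. Il1b, which encodes the cytokine IL-1 beta, read 7.50, 7.41, 7.29, 7.20 and 7.19 unstimulated, 6.28, 6.58, 6.18, 6.20 and 6.06 with IL-4, 9.18, 10.15 and 9.78 with IL-10, and 6.26, 6.75 and 6.43 with both. Combination and IL-4 arrays overlapped and lay under the unstimulated arrays, and IL-10 arrays, 2.004 above unstimulated replicates 6 to 8 on average, stood at the top. All IL-4 and combination arrays were under the filter level of 6.99, so background may limit the fall with IL-4 in either context. The interaction was -2.16 ± 0.22 (SE; adjusted p = 2.73e-08). Nfkbiz, a nuclear regulator of NF-kappa B targets, fell by 2.30 with IL-4 and by 3.71 with IL-4 on IL-10 (-1.42 ± 0.13).

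Among Toll-like receptors and their co-receptors, 5 of 14 tested genes had called negative interactions and 0 positive ones, with a median of -0.11. The called share was 35.7%, against 23.8% of all genes (10.1% negative and 13.6% positive). Tlr2, which senses bacterial lipoproteins, had means of 9.86, 8.30, 10.24 and 6.90 (-1.78 ± 0.24), and its combination arrays (6.87, 6.97 and 6.86) were at the filter level. Cd14, the lipopolysaccharide co-receptor, had means of 13.02, 11.28, 13.24 and 10.50 (-0.99 ± 0.098). The adaptor gene Myd88 had an interaction of -0.62 ± 0.084.

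Slamf9 and Fcrls, both genes of cell surface receptors of the immunoglobulin family, were raised by each cytokine alone, and the combination raised neither any further. Slamf9 read 10.34, 10.21, 10.30, 10.41 and 10.29 unstimulated, 11.16, 10.99, 11.10, 11.02 and 11.11 with IL-4, 11.23, 10.93 and 10.96 with IL-10, and 9.79, 9.73 and 9.63 with both. Either cytokine gave values above the unstimulated arrays, and the combination gave values below them, an interaction of -2.09 ± 0.16 (SE; adjusted p = 1.89e-10). Fcrls had means of 10.43, 11.96, 12.09 and 11.85, so the combination lay near the single cytokines and below their sum of 13.61 (-1.76 ± 0.13), beside a set shift of -0.54. Lifr had 7.71, 7.23, 9.69 and 6.90 (-2.31 ± 0.20), and F13a1, the A chain of coagulation factor XIII, 7.86, 6.86, 9.56 and 6.37 (-2.19 ± 0.37, beside a set shift of -0.57). The combination means of both genes and the IL-4 mean of F13a1 were under the filter level, and background may limit them. Cysltr1, a receptor for cysteinyl leukotrienes, gave -1.70 ± 0.14. The neighbouring genes Tmem176b and Tmem176a gave -1.68 ± 0.28 and -1.66 ± 0.33.

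Whether a departure from additivity was particular to IL-10 was tested against IL-6, which also signals through STAT3, in 5 arrays with IL-6 and 5 with IL-4+IL-6. The IL-4 and unstimulated arrays serve both interactions and cancel in the difference, (IL-4+IL-10 minus IL-10) minus (IL-4+IL-6 minus IL-6), which again compares the 2 sets. The difference was called in 1149 genes (16.1%, beside 38.6% called for the interaction with IL-6 itself), 615 higher and 534 lower for IL-10, and in 1060 and 820 with the replicate number as a block. In Arg1 the interactions were 2.36 with IL-10 and 2.21 with IL-6, and their difference was not called (0.16 ± 0.14, adjusted p = 0.496). Ccl24 gave 3.41 and 3.97 (difference -0.57 ± 0.24, adjusted p = 0.111), and Saa3 -2.69 and -2.06 (-0.63 ± 0.35, adjusted p = 0.226).

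Socs3 and Il4ra differed most clearly between the 2 cytokines among the named STAT3-responsive genes. The Socs3 interaction was -1.75 with IL-10 and 0.03 ± 0.14 with IL-6, a difference of -1.78 ± 0.16 (adjusted p = 1.38e-08). For Il4ra the interactions had opposite signs, -0.84 with IL-10 and 0.91 with IL-6 (difference -1.75 ± 0.18, adjusted p = 8.58e-08). Bex1 had the more positive interaction with IL-10 (3.39 against 1.94), while Cystm1 (2.18 against 3.40), Pdgfc (1.67 against 3.01) and Cd209e (3.71 against 5.99) had the more positive one with IL-6. Of the 24 ranked genes, 11 had a called difference, beside 16.1% of all genes tested. They were ranked by the interaction with IL-10, whose arrays also enter the difference, so the choice may raise that count.

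**Figure D3:**
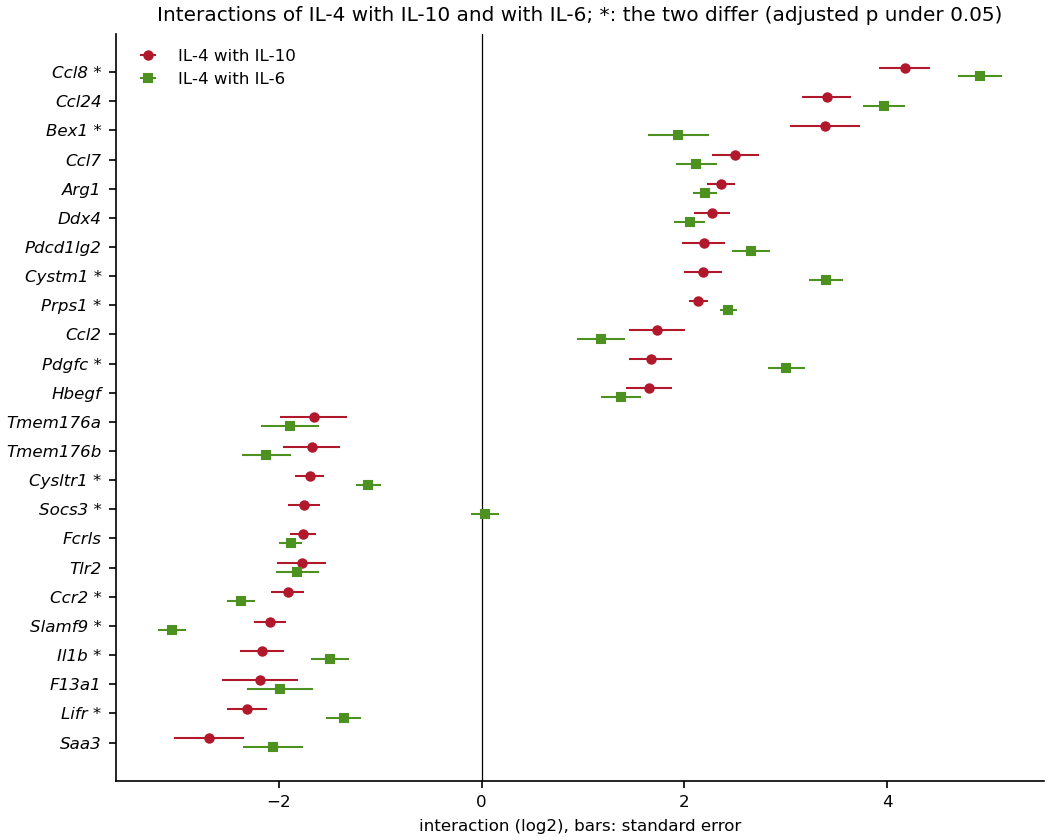
Interactions (x axis, log2; bars are standard errors) of IL-4 with IL-10 (red circles) and of IL-4 with IL-6 (green squares) for the 24 ranked genes, with a star where the 2 interactions differed at an adjusted p under 0.05. Both interactions of a gene share the IL-4 and unstimulated arrays, and Socs3 lies at -1.75 and 0.03.

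The cathepsins, lysosomal proteases that are a topic of the series, had interactions in both directions. In the list of cathepsins, cystatins and stefins, 7 of 15 tested genes had called positive and 2 called negative interactions, with a median of 0.02 (60% called in all, against 23.8% of all genes). Ctsb and Ctss, at means between 14.50 and 14.61 in all 4 groups, near the highest value measured, gave 0.02 ± 0.038 (adjusted p = 0.774) and -0.05 ± 0.046 (adjusted p = 0.453). Ctsl had means of 14.33, 14.15, 14.52 and 14.64 and an interaction of 0.30 ± 0.050 (adjusted p = 6.54e-05), so IL-4 lowered it by 0.18 without IL-10 and raised it by 0.12 with it. Ctsz gave 0.19 ± 0.052 (adjusted p = 0.00882) and Ctsk, a protease that cleaves collagen, 0.90 ± 0.12. Ctsc, which activates granule proteases, was raised by IL-10 alone and not by the combination (12.80, 12.11, 13.96 and 12.09; -1.18 ± 0.15). Other lysosomal genes had 9 called positive and 4 called negative interactions of 27 tested, and 2 negative ones without IL-4 replicate 2, IL-10 replicate 2 or IL-4+IL-10 replicate 3.

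The arms of the unfolded protein response, the cell's reaction to misfolded protein in the endoplasmic reticulum, differed in their counts. Of 25 tested targets of PERK and ATF4, 10 had called positive and 0 called negative interactions (median 0.25), among them the transcription factor gene Atf3 (0.62 ± 0.079) and Phgdh, the first enzyme of serine synthesis (0.59 ± 0.13). Without IL-10 replicate 3 that count was 6, and with unstimulated replicates 6 to 8 as controls Atf3 gave 0.27 and Phgdh 0.38. Of 40 tested targets of IRE1-XBP1 and ATF6, 10 were positive and 4 negative (median 0.02). The positive count was 6 without IL-10 replicate 1, IL-10 replicate 3 or IL-4+IL-10 replicate 3, and the negative count was 2 without IL-10 replicate 3 or IL-4+IL-10 replicate 2 and 10 with unstimulated replicates 6 to 8 as controls. Pdia4, a disulfide isomerase, rose by 0.96 with IL-4 without IL-10 and by 1.82 with it (0.86 ± 0.085), and the mean of its probe sets gave 0.44. Xbp1 (-0.23 ± 0.068, adjusted p = 0.0160) and Hspa5, the chaperone BiP (-0.16 ± 0.056, adjusted p = 0.0341), lay below the sum. Neither call is firm: that of Xbp1 was lost without IL-10 replicate 3 or IL-4+IL-10 replicate 2, and that of Hspa5 without unstimulated replicate 1 or 3, IL-4 replicate 2 or 4, IL-10 replicate 1 or 3, or IL-4+IL-10 replicate 2. Both calls were also lost with each array centred on its median. Other probe sets of Xbp1 gave -0.34 and -0.29, both called, and the dimmest gave -0.21, not called. Ern1, the sensor IRE1, did not pass the filter. Of 44 tested genes of secretory transport, 14 had called positive and 0 called negative interactions, all small (Lman1, a cargo receptor, 0.31 ± 0.073). The count was 7 without IL-10 replicate 3 and 8 without IL-4+IL-10 replicate 2. Called shares were 40% for PERK and ATF4, 35% for IRE1-XBP1 and ATF6 and 31.8% for secretory transport. Among all genes 23.8% were called, 13.6% positive and 10.1% negative.

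Interferon and lipid genes leaned to positive interactions. Among all genes 13.6% were called positive and 10.1% negative. In the type I interferon response, 9 of 26 tested genes were called positive and 2 negative (median 0.18). Usp18, a brake on interferon signalling, had means of 8.15, 9.19, 7.38 and 9.28 (0.86 ± 0.19), and the antiviral gene Mx1 7.49, 7.28, 7.21 and 6.20 (-0.80 ± 0.18). Without IL-4+IL-10 replicate 2 the counts were 4 and 3, and with the replicate block 11 and 4. For cholesterol and fatty acid synthesis, 9 of 28 were positive and 0 negative, with Lss, a cyclase of sterol synthesis, at 0.42 ± 0.093 (0.22 by the mean of its probe sets). Scd1, a fatty acid desaturase, gave 0.58 ± 0.16, and its unstimulated arrays differed by -0.65 between the sets. With unstimulated replicates 6 to 8 as controls it gave -0.06, not called, a value that includes this shift. Of 12 genes of cholesterol efflux, 4 were positive and 2 negative, and Ch25h, which makes 25-hydroxycholesterol, stood out with means of 5.25, 5.66, 6.53 and 9.08 (2.14 ± 0.20). All of these means but the last were under the filter level.

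Matrix and fusion genes were also called positive more often than negative. Among all genes the shares were 13.6% and 10.1%. In the list of matrix proteases, inhibitors and growth factors, 8 of 20 tested genes were positive and 2 negative, and in that of macrophage fusion 6 of 14 and 1. The negative count became 1 in the matrix list without IL-4 replicate 1, IL-10 replicate 3 or IL-4+IL-10 replicate 1, and 2 in the fusion list without unstimulated replicate 2, IL-4 replicate 4 or IL-4+IL-10 replicate 2. The tetraspanin gene Cd81 had means of 9.77, 9.88, 9.80 and 11.13 (1.22 ± 0.11), and Cdh1, which encodes E-cadherin, 3.65, 7.18, 3.89 and 8.68 (1.26 ± 0.27). The unstimulated and IL-10 means of Cdh1 were under the filter level. Fn1 (fibronectin) gave 0.84 ± 0.18 against unstimulated replicates 1 to 5. Against replicates 6 to 8, whose level was lower by 1.24, it gave -0.40, not called, a value that includes this shift. With replicates 6 to 8 as controls, the matrix list had 4 positive and 2 negative calls.

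Receptors for apoptotic cells and debris, and their ligands, had called interactions in both directions. Gas6, a ligand of the TAM receptors Axl and Mertk, fell by 2.15 with IL-4 without IL-10 and by 1.42 with it (0.72 ± 0.14), and Pros1, the other ligand, rose by 0.63 without IL-10 and fell by 0.20 with it (-0.83 ± 0.088). The list of TAM receptors and efferocytosis had 2 positive and 3 negative calls of 15. Among scavenger, complement and Fc receptors, 4 of 23 were positive and 3 negative. Called shares of the TAM and scavenger lists were 33.3% and 30.4%, against 23.8% of all genes (13.6% positive and 10.1% negative). The counts alone do not set these lists apart from all genes. With unstimulated replicates 6 to 8 as controls these counts were 2 and 6 in the TAM list and 2 and 8 in the scavenger list, and with the replicate block 5 and 4, and 6 and 5. The haemoglobin scavenger receptor gene Cd163 was highest with the combination, with means of 4.84, 5.14, 4.58 and 7.01 (2.13 ± 0.19). Its combination mean was at the filter level and the others were under it. The integrin gene Itgam had -1.05 ± 0.079.

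In the iron and haem list, 1 of 14 tested genes was positive and 5 negative (42.9% called, against 23.8% of all genes). Slc40a1, the iron exporter ferroportin, fell by 3.02 with IL-4 and by 3.85 with IL-4 on IL-10 (-0.83 ± 0.18), while a second, dimmer probe set of it gave -0.33, not called. Glycolysis had 1 positive and 1 negative call of 17, the latter between 0 and 3 as single arrays were left out and 4 with unstimulated replicates 6 to 8 as controls. Fatty acid oxidation had 3 and 2 of 17, with 1 positive call without IL-4+IL-10 replicate 3 and 1 negative call without IL-10 replicate 2 or IL-4+IL-10 replicate 1. Called shares of glycolysis and fatty acid oxidation were 11.8% and 29.4%, against 23.8% of all genes. Ppargc1b, a coactivator of mitochondrial genes, rose by 2.24 with IL-4 alone and by 1.38 with IL-10 present (-0.86 ± 0.14).

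**Figure D4:**
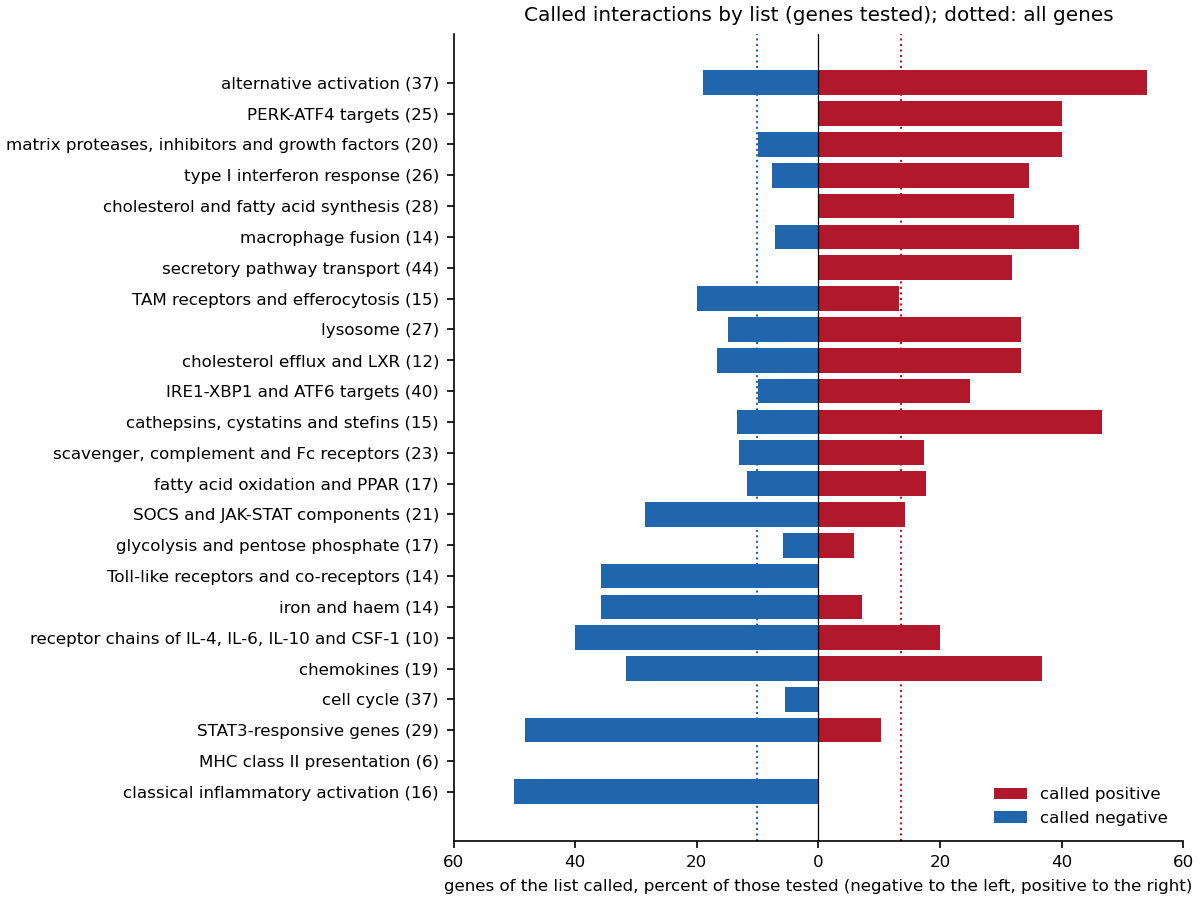
Share of tested genes of each list (percent, number tested in brackets) with a called negative interaction (blue, to the left) or a called positive one (red, to the right); dotted lines mark the shares over all genes, 10.1% and 13.6%. The alternative activation list has the longest bar to the right (20 of 37 genes) and the classical inflammatory list the longest to the left (8 of 16).

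MHC class II genes, whose products present peptides to T cells, changed less with IL-4 where IL-10 was present. The call depends on the pairing, on the control arrays and, for Ciita, on the probe set. Over the 6 tested genes of 10 listed, the median IL-4 effect was 0.56 without and 0.02 with IL-10. Ciita, the master regulator of the class, read 8.67, 8.42, 8.15, 8.17 and 7.40 unstimulated, 9.72, 9.46, 8.90, 9.14 and 8.58 with IL-4, 7.36, 8.02 and 7.86 with IL-10, and 7.51, 7.96 and 7.85 with both. Groups overlapped because arrays of a group differed widely, yet within numbered pairs IL-4 raised Ciita by 0.74 to 1.18 without IL-10 and by -0.06 to 0.14 with it. Over all genes tested, 1137 (15.9%) had every paired effect with IL-10 below every one without. The interaction of -0.97 ± 0.40 was not called (adjusted p = 0.0769), whereas with the replicate number as a block it was -0.97 ± 0.11 (adjusted p = 1.18e-06). A second, dimmer probe set of Ciita gave -0.86 ± 0.27 without the block, called in limma's test over all probe sets that name 1 gene (adjusted p = 0.0403). H2-Ab1, a class II beta chain, gave -0.57 with adjusted p = 0.127 without and 0.000265 with the block. In the whole list, 0 of 6 were called without the block and 5 of 6 negative with it. Over all 7154 genes tested, 725 were called negative without the block and 1086 with it. Without the block, unstimulated replicates 6 to 8 as controls gave 5 negative calls and all 8 unstimulated arrays 2. Also without it, leaving out IL-10 replicate 1 gave 3 negative calls, and leaving out unstimulated replicate 1 or IL-4 replicate 5 gave 1 (Ciita). B cells carry class II as well, and the level of B lineage transcripts, lower in the second set as given above, was not tested for its part in these values.

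Cell cycle genes had a median interaction of -0.24, and 2 of 37 tested were called, both negative (Mcm4, -0.39 ± 0.11, and Rrm1, -0.37 ± 0.12). The called share was 5.41%, against 23.8% of all genes. The replicate block gave 15 negative calls. This list turned on a single array: its score, the median over genes relative to unstimulated replicates 1 to 5, was 0.07 on IL-10 replicate 1 and -0.53 and -0.50 on IL-10 replicates 2 and 3, against -0.34, -0.44 and -0.47 with IL-4+IL-10. Without IL-10 replicate 1, 0 genes of the list were called, and without IL-10 replicate 2, 7. The count was 5 without IL-4+IL-10 replicate 1, 4 without unstimulated replicate 3, and 1 without unstimulated replicate 2 or IL-4+IL-10 replicate 3. Leaving out replicate 1 of both IL-10 groups, a choice made after that score was seen, gave 947 positive and 628 negative calls over all genes and 0 in this list.

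**Figure D5:**
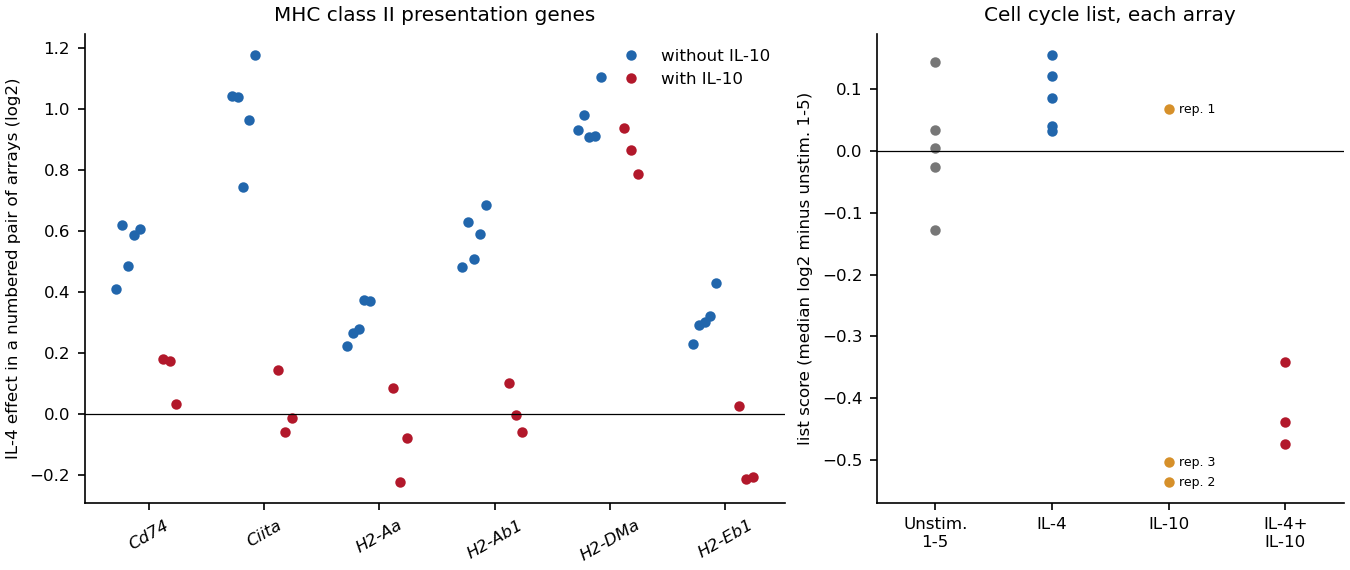
Left, the IL-4 effect (y axis, log2) in each numbered pair of arrays for the 6 tested MHC class II genes, without IL-10 (blue, 5 pairs) and with IL-10 (red, 3 pairs). In all but H2-DMa the red points lie below the blue ones, which held in 15.9% of all genes tested. Right, the cell cycle score of each array (y axis, log2 relative to unstimulated replicates 1 to 5), in which IL-10 replicate 1 lies at 0.07 and the other IL-10 replicates at -0.53 and -0.50.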

How the data were processed

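The authors deposited 1 log2 intensity per probe set and array, made with RMA (background correction, quantile normalization, summary over probes) per the submitters' processing notes, which also name GCOS 1.4 without its role. The notes leave out the log base. A 16-bit scanner cannot give a natural logarithm over 11.09 and values reach 15.13, so the base was taken as 2. Whether all arrays were normalized together, and the genome build behind the probes, are not given in the sources used here. The precision of every value is limited by the number of arrays.

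The values were used as deposited. Of 22690 probe sets, 20393 name 1 gene, 691 several (not used) and 1606 none; the reference table of genes held 20364 by identifier and lacked 29. A gene was represented by its probe set of highest mean, and 7154 of 12394 genes with at least 3 arrays above the median of all values (6.99) were tested. A mean was fitted for each of 7 groups over all 29 arrays, the unstimulated replicates 1 to 5 and 6 to 8 being separate groups, with limma 3.58.1 in R 4.3.3 (lmFit, contrasts, eBayes, two-sided moderated tests, Benjamini-Hochberg over all genes tested). SE is the moderated standard error of a contrast. The fit was tested on simulated data.

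Named genes are the 12 most positive and 12 most negative called interactions with at least 2 of 4 group means above the filter level, up to 3 called genes (or 2 as values) from each of 32 gene lists, 8 of them cell type markers, and 14 fixed readouts of the pathways and of the study's topic. Not every gene taken from a list is printed. Cd74, H2-Aa, H2-Eb1, H2-DMa, Csf1r, Lyz2 and Iglv1 fall outside the rule and were printed or plotted after their values were seen. Genes, lists and tests were chosen with earlier results of these data known.

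Replicate numbers pair the arrays: over 13 pairs within a set (same number with and without IL-4), deviations from the group means correlated at 0.52 to 0.78, all above 0.1. This comes from the data, since the labels give only numbers. The fit with the number as a block is given where it changes a call. Other alternatives concerned normalization, the filter, the probe set, the variance model, the control arrays, thresholds and each array left out in turn.

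Promoters (250 bases before to 50 after a gene's start) are RefSeq's on GRCm38.p6.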

Additional observations from a re-analysis of the deposited data

Results flagged for a closer look

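In 34 of 99 named genes the interaction of IL-4 with IL-10 differed from that with IL-6 in limma's test of the difference itself, where the adjusted p ranged from 1.35e-09 in Cd209e to 0.0498 in Ccr2. Over all genes tested the share was 16.1%, and many named genes were chosen for their interaction with IL-10. Differences are given as IL-10 minus IL-6, and the cytokine and the set of arrays that carried it cannot be told apart.

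Among genes with a positive interaction with both cytokines, the departure was smaller with IL-10 in Cd209e (difference -2.28), Cd163 (-1.77), Ch25h (-1.52), Chil4 (-1.49), Pdgfc (-1.34), Cystm1 (-1.22) and Gas6 (-1.15). The same held for Cd81 (-0.86), Mylip (-0.83), Ccl8 (-0.74), Jak2 (-0.49), Pdia4 (-0.49), Cst7 (-0.37), Prps1 (-0.30) and Sec23b (-0.19). It was larger with IL-10 in Bex1 (1.45), and in Fn1 (0.77) and Atf3 (0.61), whose interactions with IL-6 were 0.07 and 0.01.

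Among genes with a negative interaction with both, the departure was larger with IL-10 in Lifr (-0.95), Il1b (-0.67), Cysltr1 (-0.58), Ctsc (-0.48) and Myd88 (-0.34). It was smaller with IL-10 in Siglecf (1.11, not called with IL-10), Slamf9 (0.96), Ocstamp (0.81), Angptl4 (0.48) and Ccr2 (0.46).

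Signs of the 2 estimates differed in Socs3 (difference -1.78, with 0.03 for IL-6) and Il4ra (-1.75, with 0.91 for IL-6). They also differed in Scd1 (1.17, with -0.59 for IL-6), Psat1 (0.87, with -0.30), Batf3 (0.80, with -0.60) and Fads2 (0.72, with -0.17). The Socs3 value for IL-6 was smaller than its SE given above, so its sign is not determined.

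In 8 of 198 groups of 5 arrays, of 99 genes, an array stood apart from the others by Dixon's test, a rule that chance meets in about 1 group of 20. Pdgfc read 6.56 on unstimulated replicate 2 and 5.93 to 5.96 on the others, and Cd81 read 9.97 on the same array and 9.68 to 9.75 on the others. On unstimulated replicate 5, Il4ra read 7.54 (others 7.98 to 8.10) and Il21r 6.70 (others 7.20 to 7.38). On IL-4 replicate 5, Tlr2 read 7.88 (others 8.33 to 8.47) and Cd209e 4.62 (others 4.41 to 4.47). On IL-4 replicate 4, Stat6 read 10.56 (others 10.64 to 10.66) and Ctss 14.64 (others 14.50 to 14.54).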

How the results depend on the processing

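The count of 976 positive and 725 negative interactions stayed within 1.5 times under quantile normalization again, median centring, both filters, the mean of probe sets, each probe set by itself, both variance models, the 16 arrays alone, all 8 unstimulated arrays and without replicate 1 of both IL-10 groups, an alternative chosen after seeing the data. It moved further in 4 settings. With unstimulated replicates 6 to 8 as controls, 1650 were positive. Each value then holds the interaction plus the shift between the sets' unstimulated arrays. That shift was called higher in replicates 6 to 8 in 878 genes and lower in 488. An adjusted p under 0.01 left 562 positive and 442 negative, and the demand for an absolute interaction of at least 1 left 60 and 59. With the replicate number as a random block they were 1518 and 1131. As a fixed replicate block the pairing gave 1378 and 1086: all 1701 calls made without the block were among them, and 763 were added. The block gave 1060 higher and 820 lower calls for the difference between IL-10 and IL-6, against 615 and 534, and in the named genes it changed only the calls of Ciita, H2-Ab1, Cd79b and Itga2b.

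Leaving out each array in turn gave 693 to 1037 positive and 587 to 761 negative interactions, 423 to 825 higher and 409 to 553 lower calls for the difference between IL-10 and IL-6, 2070 to 2397 and 1871 to 2047 for the IL-4 effect with IL-10, and 1881 to 1997 and 1993 to 2202 for that without. Of 99 named genes, 2 reversed, both with unstimulated replicates 6 to 8 as controls: Scd1 at -0.064 and Fn1 at -0.40. Over gene lists, the call counts that moved by over 1.5 times with the filter or the probe set included the targets of IRE1-XBP1 and ATF6 (6 positive and 3 negative with no filter), secretory transport (8 positive with no filter), the interferon response (6 and 0 with the stricter filter) and receptor chains (2 and 2 with the mean of probe sets). Slc40a1 was not called with the mean of probe sets (-0.58). In Scd1 and Fn1 the unstimulated arrays of the sets differ by -0.65 and -1.24. These shifts are added to the interaction when replicates 6 to 8 are the controls. The number of IL-10 and IL-4+IL-10 arrays, 3 each, limits the precision of every interaction.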
